A study of Mus musculus with 6 samples.

Results

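The genes described here encode the constitutive proteasome and its regulators in mouse fetal thymocytes. They were taken by gene symbol, as every gene whose symbol in the probe annotation starts with Psma, Psmb, Psmc, Psmd or Psme. Psmb8, Psmb9, Psmb10 and Psmb11, the immunoproteasome and thymoproteasome subunits, were left out. The rule gave 41 of 19937 genes tested. No measured value entered it, but the list was chosen with earlier results of these data known. Of the 41 genes, 39 encode a proteasome subunit, activator or assembly chaperone. The other two, Psmc3ip and Psme3ip1, are taken in by their names only: Psmc3ip encodes a meiotic recombination cofactor and Psme3ip1 a protein that binds an activator of the proteasome.

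The proteasome breaks down proteins that carry ubiquitin chains. Its barrel-shaped 20S core has outer rings of alpha subunits (Psma genes) and inner rings of beta subunits (Psmb genes), and Psmb5, Psmb6 and Psmb7 hold the proteolytic sites. The 19S cap recognises and unfolds substrates through a base with ATPases (Psmc genes) and a lid (most Psmd genes). The activators PA28 (Psme1 and Psme2, or Psme3 alone) and PA200 (Psme4) can bind the core in place of the cap. In many cell types interferon raises Psme1, Psme2 and the immunoproteasome subunits, and cortical thymic epithelium makes the thymoproteasome subunit Psmb11.

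All 6 arrays were of RNA from Thy1.2+ cells, magnetically purified from Rag1-/- fetal thymi at E17.5, a genotype that every group including the controls carried. Without Rag1 no T cell receptor gene is rearranged, and antibody to CD3 stands in for the missing receptor signal. The groups of 2 arrays each were fresh thymi at 0 h (Control-0h, here called fresh), thymi with anti-CD3 and DMSO for 40 h (Control-DMSO-40h, DMSO), and thymi with anti-CD3 and 50 µM 79-6 for 40 h (79-6-40h, 79-6). The compound 79-6 inhibits the BTB domain of the repressor Bcl6. The series design places the stimulated cells in fetal thymic organ culture, and the sample labels do not. Culture, elapsed time, vehicle and antibody all separate DMSO from fresh and cannot be told apart, while DMSO and 79-6 are set apart by the compound. Neither the number of embryos per array nor separate cultures are given, and the spread behind every p-value is therefore that of these arrays, which may be technical.

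Levels below are log2 of the array intensity, changes are differences of group means on that scale, and a gene was called at an adjusted p under 0.05 by limma over all 19937 genes. Arrays have no read depth, and 2 arrays per group limit the precision. Replicate arrays correlated at 0.9977, 0.9975 and 0.9968 across genes in fresh, DMSO and 79-6, against 0.9787 to 0.9946 between groups. Of 8 thymocyte markers 6 were measured, and from fresh to DMSO 1 rose (Thy1, 0.43) and 4 fell (Il2ra, -1.94; Ptcra, -1.86; Cd3g, -0.68; Cd3e, -0.47). Bcl11b (-0.10) was not called. From DMSO to 79-6 Il2ra alone of the 6 was called (0.58). The summed intensity of the 6 was 51567 to 53534 in fresh, 33332 to 34125 in DMSO and 34245 to 35471 in 79-6. Il2ra was the brightest of them in fresh (mean log2 13.79) and fell most, so the sum is no measure of thymocyte number. Markers of other cells were present too. The summed intensity of 8 macrophage and dendritic markers was 1921 to 3169 in fresh, 11910 to 12100 in DMSO and 14074 to 16146 in 79-6. From fresh to DMSO 4 of these 8 rose, Lyz2 by 3.88, Adgre1 by 1.63, Itgam by 1.55 and Csf1r by 1.43. Cd14 (0.76), Cd68 (0.35), Itgax (0.12) and Mrc1 (0.06) were not called. Lyz2 was also the brightest of them in DMSO (mean log2 13.06) and weighs most in that sum. From DMSO to 79-6 Itgax alone was called (1.14). The summed intensity of 6 thymic epithelial markers was 7781 to 7843, 2177 to 3218 and 2793 to 2806, with 6 of 6 lower in DMSO than in fresh. That of 5 NK cell markers was 5602 to 6564, 2282 to 2437 and 4833 to 4989. From fresh to DMSO 3 of these 5 fell (Ncr1, Nkg7 and Gzmb), while Klrb1c (0.05) and Prf1 (0.12) were not called. Of 5 granulocyte and mast cell markers 4 rose and 1 fell (Cpa3, -1.61) from fresh to DMSO. From DMSO to 79-6 Cpa3 (-1.43) and Mpo (-0.86) fell, and 0 rose. Of 5 mesenchymal and endothelial markers 1 rose and 2 fell from fresh to DMSO, and Pdgfrb alone was called from DMSO to 79-6 (-0.37). Among B cell and erythroid markers Ebf1 (-1.12) and Alas2 (-2.73) fell from fresh to DMSO, and 0 were called from DMSO to 79-6. The part of these cells in the results below was not tested. In bulk RNA fewer cells of a type and less RNA of its markers per cell cannot be told apart.

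Most proteasome genes differed little between the groups. From fresh to DMSO 2 of 41 were higher (Psmd8 and Psme4) and 3 were lower (Psme1, Psme2 and Psma8). These are 12.2% of the members, where limma called 19.6% of all genes, 8.89% higher and 10.7% lower. From DMSO to 79-6, 1 member was higher (Psme2) and 0 were lower by limma, against 4.36% of all genes called, 2.38% higher and 1.98% lower. At an unadjusted p under 0.05 there were 2 higher and 1 lower members in that comparison, where 20.5% of all genes passed, 10.7% higher and 9.78% lower. Between 79-6 and fresh 2 members were higher (Psmd8 and Psma2) and 2 lower (Psme1 and Psma8), 9.76% of the members against 26% of all genes, 12% higher and 13.9% lower. The same threshold passed 6 higher and 4 lower members for DMSO against fresh, where 14.9% of all genes were higher and 16% lower, and 6 higher and 6 lower for 79-6 against fresh, where it was 19.4% and 18.5%. In all, 35 of 41 members were called in none of the 3 comparisons, as were 69.5% of all genes. Setting all arrays to 1 median moved the split of all called genes, from 45.4% to 58.2% higher for DMSO against fresh and from 54.7% to 40% for 79-6 against DMSO.

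A gene that is not called may still differ, so the 95% interval of each change was set against a band of 1.5-fold in either direction. From fresh to DMSO the intervals of 38 of 41 members lay inside this band, against 83.1% of all genes. The exceptions were Psma8, Psme1 and Psme2. In the step to 79-6 it was 40 of 41, all but Psme2, against 90.9% of all genes. Between 79-6 and fresh it was 39, all but Psma8 and Psme1, against 78.9%. For 38 members, and for 73.6% of all genes, the interval lay inside the band in each of the 3 comparisons. This band was chosen after the data were seen.

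The members' median change from fresh to DMSO was 0.030, with quartiles at -0.051 and 0.100, where all genes had a median of 0.017 and quartiles at -0.117 and 0.130. For 79-6 against DMSO the members' median was 0.011 (quartiles -0.039 and 0.054), against 0.020 (-0.084 and 0.122) for all genes, and it was -0.040 with arrays set to 1 median. Between 79-6 and fresh it was 0.061 (-0.061 and 0.131), against 0.046 (-0.125 and 0.177). Under the alternative that tests only genes whose mean intensity is at or above the median of all genes, 40 of 41 members were kept, all but Psma8. There limma called 40.9% of 9969 genes from fresh to DMSO and 5 members higher and 3 lower of 40. In 79-6 against DMSO it called 15.5% of genes and 1 member, and between 79-6 and fresh 50% of genes, 6 members higher and 3 lower.

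**Figure D1:**
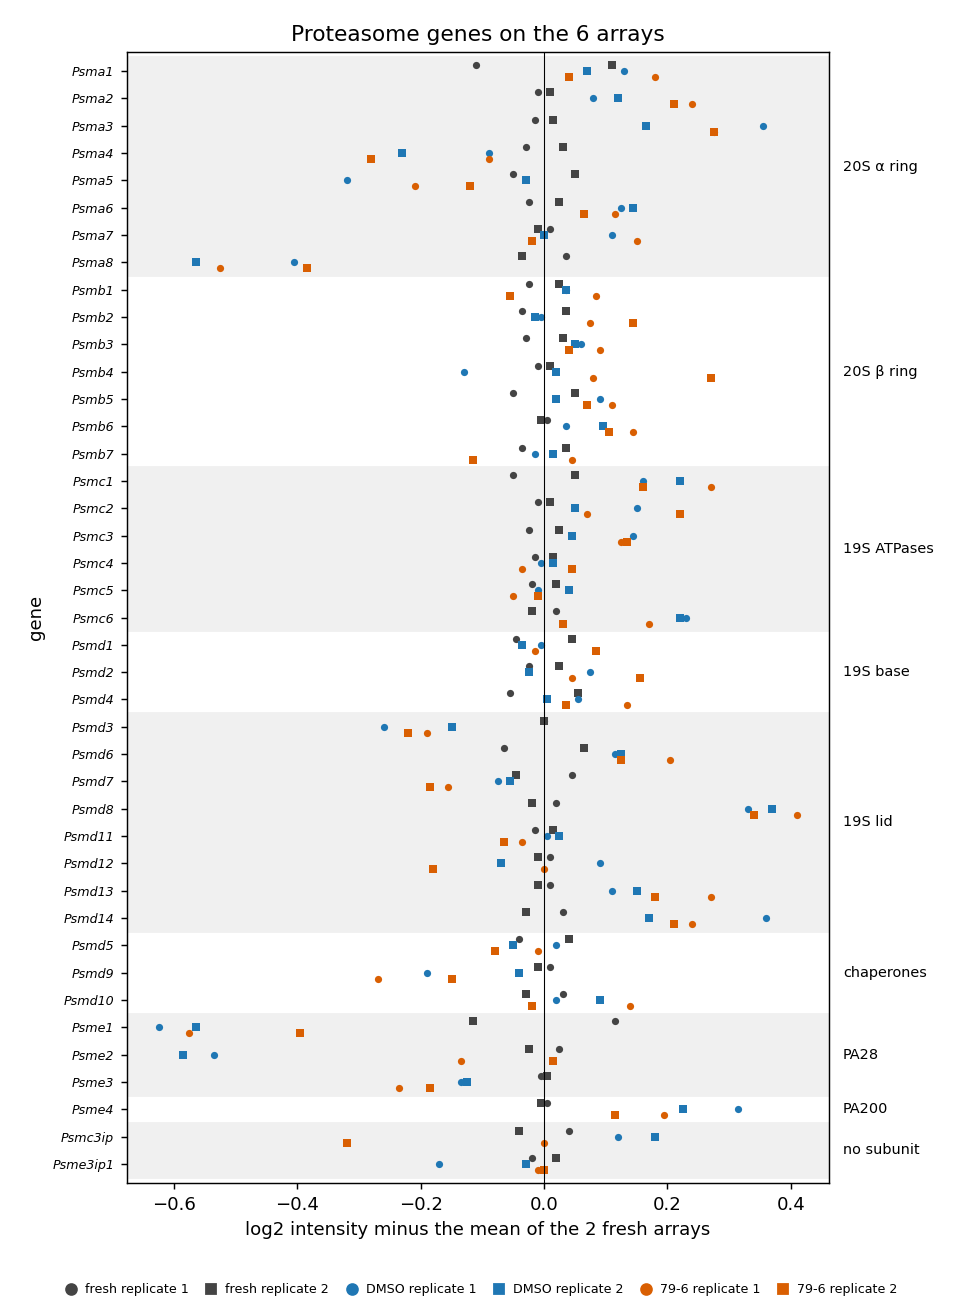
Level of the 41 proteasome genes on each array as log2 intensity minus the mean of the fresh arrays of the same gene, ordered by role; circles are replicate 1 and squares replicate 2 of fresh (grey), DMSO (blue) and 79-6 (orange). Most points lie close to 0, and the DMSO points of Psme1, Psme2 and Psma8 lie to the left and those of Psmd8 to the right.

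The catalytic subunits stayed close to their fresh level, and none was called in any comparison. Psmb5, the chymotrypsin-like subunit (probe set 10419810), read 12.76 and 12.86 in fresh, 12.90 and 12.83 in DMSO and 12.92 and 12.88 in 79-6. DMSO overlapped both other groups, and both 79-6 arrays lay above fresh. Its change from fresh to DMSO was 0.05 with a 95% interval from -0.12 to 0.23, and from DMSO to 79-6 it was 0.04 (-0.14 to 0.21). Psmb6, the caspase-like subunit (10377851), read 11.08 and 11.07, 11.11 and 11.17, and 11.22 and 11.18. Its arrays stood in the order fresh, DMSO, 79-6 without overlap, but the changes of 0.07 (-0.10 to 0.23) and 0.06 (-0.11 to 0.22) did not pass the test, with adjusted p-values of 0.600 and 0.702 by limma. Psmb7, the trypsin-like subunit (10482229), read 10.68 and 10.75, 10.70 and 10.73, and 10.76 and 10.60, with overlap between all groups and changes of 0.00 (-0.19 to 0.19) and -0.04 (-0.23 to 0.15).

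The other beta subunits, Psmb1, Psmb2, Psmb3 and Psmb4, carry no active site. None of the 7 beta genes was called in any comparison by limma. Their changes ran from -0.05 to 0.07 from fresh to DMSO, from -0.04 to 0.23 from DMSO to 79-6 and from -0.03 to 0.18 between 79-6 and fresh. The highest value from DMSO to 79-6 was that of Psmb4, at 0.23 (0.02 to 0.44, adjusted p = 0.217). For all 7 the intervals from fresh to DMSO lay between -0.27 and 0.23.

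In the alpha ring, which gates the entry to the core, 0 of 8 genes were higher and 1 was lower from fresh to DMSO, and the changes ran from -0.49 to 0.25. Psma3 was highest, at 0.25 (0.06 to 0.45, adjusted p = 0.0781). Its other probe sets gave 0.16 and 0.21. Psma2 (10403706) read 10.32 and 10.34 in fresh, 10.41 and 10.45 in DMSO and 10.57 and 10.54 in 79-6. Every array of a later group in that list was above every array of the one before. The difference between 79-6 and fresh was 0.23 ± 0.07 (SE; 1.17-fold, adjusted p = 0.0469), and the steps from fresh to DMSO (0.10) and from DMSO to 79-6 (0.13) did not pass. The call was lost without any 1 of the 6 arrays, where adjusted p lay between 0.0723 (without either DMSO array) and 0.199 (without fresh replicate 1), with 0.157 without fresh replicate 2, 0.105 without 79-6 replicate 1 and 0.104 without 79-6 replicate 2. It was also lost with arrays set to 1 median (0.0536), where the range over all alternatives was 0.0107 to 0.199.

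Psma8 encodes an alternative alpha subunit known from the testis. Its probe set (10454067) read 5.92 and 5.85 in fresh, 5.48 and 5.32 in DMSO and 5.36 and 5.50 in 79-6. Both stimulated groups lay below fresh and overlapped each other. The change was -0.49 ± 0.09 from fresh to DMSO (SE, adjusted p = 0.00849) and -0.46 ± 0.09 between 79-6 and fresh (adjusted p = 0.00845). The first was no longer called when fresh replicate 1 (0.0594) or DMSO replicate 2 (0.0585) was left out, in a range over the alternatives of 0.00675 to 0.0594. The second was lost without fresh replicate 1 (0.0593, range 0.00714 to 0.0593). These values do not show whether it was above background.

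The 6 ATPases of the 19S base (Psmc1 to Psmc6) thread substrates into the core, and 0 of 6 were called in any comparison by limma. Their changes ran from 0.01 to 0.23 from fresh to DMSO, with a median of 0.10, from -0.13 to 0.04 from DMSO to 79-6 and from -0.03 to 0.22 between 79-6 and fresh. Psmc6 had the largest change from fresh to DMSO, at 0.23 (0.05 to 0.41, adjusted p = 0.0845). Psmc4 and Psmc5 were at 0.01 each, with intervals of -0.16 to 0.17 and -0.15 to 0.18. The non-ATPase base subunits are the scaffolds Psmd1 and Psmd2 and the ubiquitin receptor Psmd4. None of these 3 was called, and their changes from fresh to DMSO ran from -0.02 to 0.03.

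The lid removes ubiquitin chains, and 1 of its 8 genes was called, Psmd8. It read 11.61 and 11.57 in fresh, 11.92 and 11.96 in DMSO and 12.00 and 11.93 in 79-6 (probe set 10561679). Both stimulated groups lay above fresh, and they overlapped each other. Psmd8 rose by 0.35 ± 0.07 from fresh to DMSO (SE; 1.27-fold, adjusted p = 0.0133 by limma) and was 0.37 ± 0.07 higher in 79-6 than in fresh (1.29-fold, adjusted p = 0.00784). From DMSO to 79-6 the change was 0.02 (-0.14 to 0.19). The call from fresh to DMSO did not survive leaving out fresh replicate 1 (0.0656), fresh replicate 2 (0.0874), DMSO replicate 1 (0.0586) or DMSO replicate 2 (0.0758), each of which left 1 array in a group, in a range over the alternatives of 0.000508 to 0.0874. The call between 79-6 and fresh was lost without fresh replicate 2 (0.0561, range 0.000253 to 0.0561).

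The lid subunit Psmd14, the deubiquitinase itself, stood at 0.26 (0.06 to 0.46, adjusted p = 0.0731) from fresh to DMSO, and Psmd3 at -0.20 (-0.38 to -0.03, adjusted p = 0.101). The other lid genes ran from -0.06 (Psmd7) to 0.13 (Psmd13). In 79-6 against DMSO all 8 lid genes lay between -0.11 and 0.09. Psmd5, Psmd9 and Psmd10 are chaperones that assemble the base, and none of these 3 was called, with changes from -0.12 to 0.06 from fresh to DMSO and from -0.09 to -0.00 from DMSO to 79-6.

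The largest changes of any member from fresh to DMSO were those of the PA28 genes Psme1 and Psme2. Psme1, which encodes PA28 alpha (10415282), read 11.96 and 11.73 in fresh, 11.22 and 11.28 in DMSO and 11.27 and 11.45 in 79-6. The DMSO and 79-6 arrays all lay below both fresh arrays and overlapped each other. Psme1 fell by 0.60 ± 0.10 from fresh to DMSO (SE; 1.51-fold, adjusted p = 0.00645), and its change from DMSO to 79-6 was 0.11 (-0.13 to 0.35, adjusted p = 0.614). In 79-6 it stayed 0.49 ± 0.10 below fresh (1.41-fold, adjusted p = 0.0115). Leaving out fresh replicate 1 ended this call (-0.38, adjusted p = 0.0738, range over the alternatives 0.00117 to 0.0738).

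Psme2 encodes PA28 beta, the partner of PA28 alpha in the same ring. It read 11.81 and 11.76 in fresh, 11.25 and 11.20 in DMSO and 11.65 and 11.80 in 79-6 (probe set 10420030). DMSO lay below the other groups, and 79-6 overlapped fresh. Psme2 fell by 0.56 ± 0.08 from fresh to DMSO (SE; 1.47-fold, adjusted p = 0.00300) and was 0.50 ± 0.08 higher in 79-6 than in DMSO (1.41-fold, adjusted p = 0.0225 by limma). Between 79-6 and fresh its change was -0.06 (-0.25 to 0.13, adjusted p = 0.621). The rise from DMSO to 79-6 was not called without DMSO replicate 1 (0.52, adjusted p = 0.110), DMSO replicate 2 (0.48, 0.145) or 79-6 replicate 2 (0.42, 0.110), in a range over the alternatives of 0.00107 to 0.145. The falls of Psme1 and Psme2 from fresh to DMSO were called in each of the 12 alternatives run, at adjusted p-values up to 0.0482 and 0.0265. A further probe set that is annotated to both Psme2 and its copy Psme2b was not used, and the one used may also read that copy.

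The within-array difference Psme2 minus Psme1 rose by 0.39 from DMSO to 79-6, with no overlap of arrays, and changed by 0.04 from fresh to DMSO. For 2 arrays against 2 the smallest p that an exact two-sided permutation test can give is 0.333, and the first difference had that p (0.428 adjusted over 18 such comparisons of 6 gene pairs). Psme3 forms the nuclear PA28 ring without the other two. It read 12.04 and 12.05 in fresh, 11.91 and 11.92 in DMSO and 11.81 and 11.86 in 79-6, and none of its changes was called (-0.13 from fresh to DMSO, adjusted p = 0.251; -0.08 from DMSO to 79-6, adjusted p = 0.586; -0.21 between 79-6 and fresh, adjusted p = 0.0634).

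Interferon-stimulated genes fell beside Psme1 and Psme2 from fresh to DMSO. In the step to 79-6 some of them rose beside Psme2, while the change of Psme1 was not called (0.11, adjusted p = 0.614 by limma). From fresh to DMSO 7 of 8 measured genes of this list fell with 0 higher, at a median of -1.56, and from DMSO to 79-6 4 of 8 rose with 0 lower, at a median of 0.60. Their summed intensity was 23133 to 26539 in fresh, 9108 to 9906 in DMSO and 12927 to 14175 in 79-6. Rsad2, an antiviral enzyme, changed by -1.63 and 0.73 and the regulator Irf7 by -1.31 and 0.59 in the 2 steps. In the first step Irf1 (-0.26) was not called. Those not called in the second were Ifit1 (0.61), Oasl2 (0.43), Irf1 (0.29) and Tap1 (0.06). Of the 5 NK cell markers 3 fell in the first step and 2 rose in the second. Nkg7 changed by -1.28 and 1.12 and Gzmb by -2.28 and 1.13, both called in both steps. Ncr1 stood at -0.95 and 0.69, Klrb1c at 0.05 and 0.42 and Prf1 at 0.12 and 0.49, of which the first value of Ncr1 alone was called. The part of interferon response genes or of NK cells in the Psme2 values was not tested.

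Psme4 encodes PA200, an activator tied to the breakdown of histones. It read 10.97 and 10.96 in fresh, 11.28 and 11.19 in DMSO and 11.16 and 11.08 in 79-6 (probe set 10374934). Fresh lay below both other groups, and 79-6 lay below DMSO. Psme4 rose by 0.27 ± 0.07 from fresh to DMSO (SE; 1.2-fold, adjusted p = 0.0443), and its change from DMSO to 79-6 was -0.11 (-0.29 to 0.06, adjusted p = 0.445). Leaving out any of 4 arrays ended the call, namely fresh replicate 1 (0.162), fresh replicate 2 (0.188), DMSO replicate 1 (0.209) or DMSO replicate 2 (0.0840), in a range over the alternatives of 0.00616 to 0.209.

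Of the genes that encode no subunit, Psmc3ip (10391339) read 7.75 and 7.67 in fresh, 7.83 and 7.89 in DMSO and 7.71 and 7.39 in 79-6. It had the smallest p among members with a lower value in 79-6 than in DMSO, at -0.31 ± 0.11 (SE, adjusted p = 0.167), and was called without 79-6 replicate 1 (-0.47, adjusted p = 0.0492, range over the alternatives 0.0492 to 0.494). Psme3ip1 changed by -0.10, 0.09 and -0.00 in the 3 comparisons, none of them called.

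**Figure D2:**
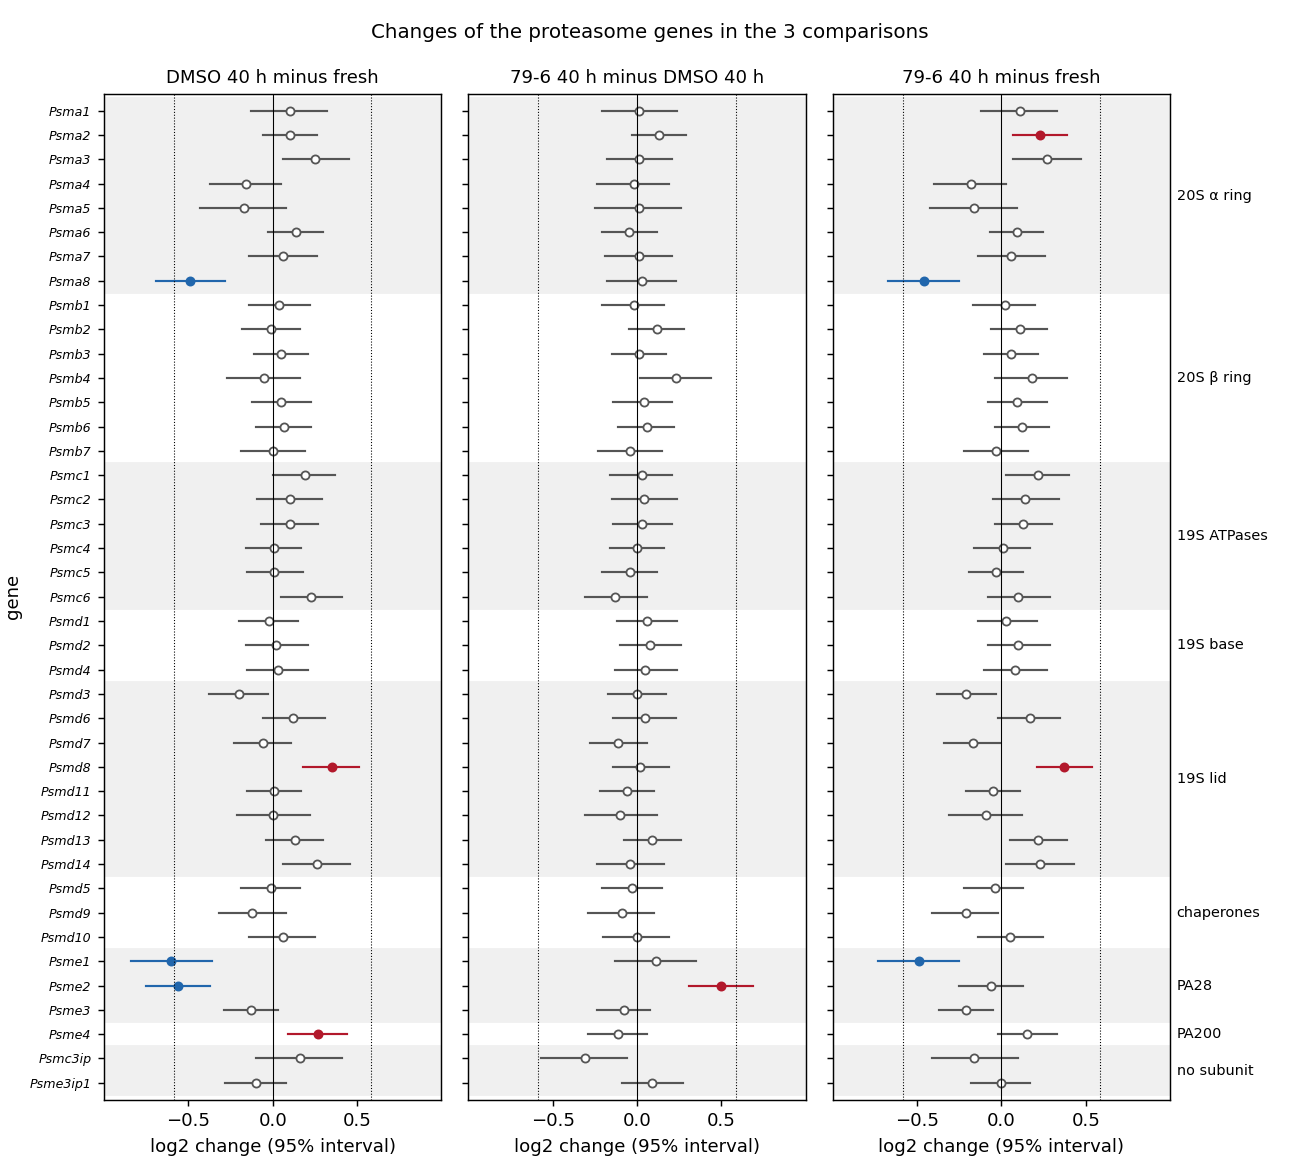
Log2 change (points) and 95% interval from limma (lines) of each of the 41 genes in the 3 comparisons, with called genes filled in red (higher) or blue (lower) and dotted lines at 1.5-fold in either direction. In the middle panel, 79-6 against DMSO, Psme2 at 0.50 is the only filled point.

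The subunits that replace Psmb5, Psmb6 and Psmb7 in the immunoproteasome were set beside them, since interferon-treated cells exchange one set for the other. Psmb10, which takes the place of Psmb7, read 11.34 and 11.46 in fresh, 10.56 and 10.58 in DMSO and 11.10 and 10.94 in 79-6. The 3 groups did not overlap, and 79-6 lay between the other two. Psmb10 fell by 0.83 ± 0.09 from fresh to DMSO (SE; 1.78-fold, adjusted p = 0.000681). It was 0.45 ± 0.09 higher in 79-6 than in DMSO (1.36-fold, adjusted p = 0.0371), a call lost in each fit without 1 array, from 0.0526 without either fresh array through 0.0842 and 0.0847 without 79-6 replicate 1 or 2 to 0.160 and 0.169 without DMSO replicate 1 or 2. The within-array difference Psmb10 minus Psmb7 changed by -0.84 from fresh to DMSO and by 0.49 from DMSO to 79-6, with no overlap of arrays (exact permutation p = 0.333, adjusted 0.428, for each). Most of the 18 such comparisons had no overlap and this p, the smallest the test can give. Neither therefore sets this pair apart.

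Psmb9, the partner of Psmb6, changed by -0.27 (-0.46 to -0.09, adjusted p = 0.0527) from fresh to DMSO and Psmb8, the partner of Psmb5, by -0.13 (-0.30 to 0.04, adjusted p = 0.274). In the step to 79-6 they stood at 0.12 and 0.03, and neither was called. Relative to Psmb6, Psmb9 changed by -0.34 from fresh to DMSO, and relative to Psmb5, Psmb8 changed by -0.19, both without overlap of arrays and with the same smallest exact p of 0.333. Psmb11 starts 7315 bases from Psmb5 on chromosome 14 and read 7.88 and 7.80 in fresh, 6.79 and 6.68 in DMSO and 6.99 and 6.67 in 79-6. It fell by 1.10 ± 0.11 from fresh to DMSO (SE; 2.15-fold, adjusted p = 0.000667), beside the fall of thymic epithelial markers such as Foxn1 (-1.28) and Krt5 (-1.57), while Psmb5 changed by 0.05. The part of epithelial cells in this fall was not tested.

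**Figure D3:**
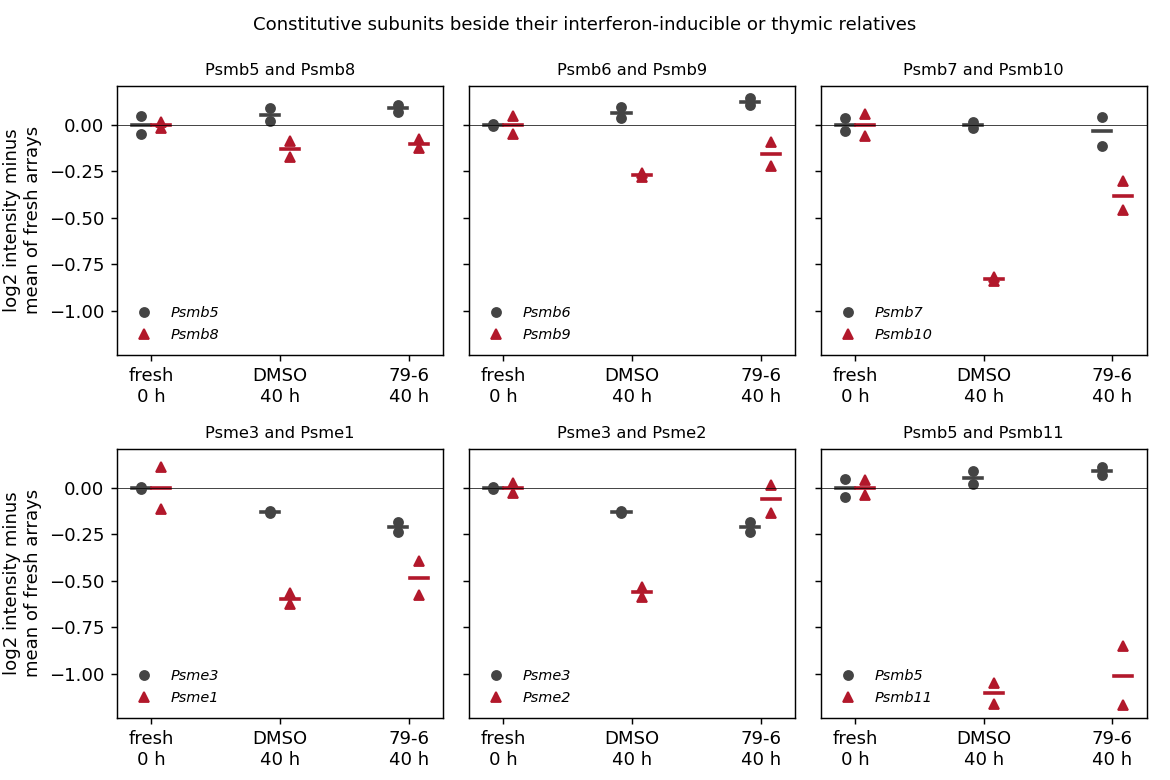
Log2 intensity minus the mean of the fresh arrays for Psmb5, Psmb6, Psmb7 and Psme3 (grey circles) and for the related gene named in each panel (red triangles), with 1 point per array and a bar at each group mean. The grey points stay between -0.25 and 0.25, and Psmb10, Psme1, Psme2 and Psmb11 drop in DMSO, of which Psme2 overlaps the fresh arrays again in 79-6.

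Promoters are shown for the catalytic genes Psmb5 and Psmb6, whose values changed little, and for Psme1 and Psme2, which fell together. The nearest listed starts of Psme1 and Psme2 lie 12527 bases apart on chromosome 14. Each sequence holds the 250 bases before the transcription start, 5′ to 3′ on the gene's strand, from RefSeq on GRCm38.p6. Capitals mark the core of the antioxidant response element, TGACNNNGC, the letters bound by the transcription factor Nfe2l1 that drives proteasome genes when proteasomes fail.
Psmb5 (chr14:54617996-54618245, - strand): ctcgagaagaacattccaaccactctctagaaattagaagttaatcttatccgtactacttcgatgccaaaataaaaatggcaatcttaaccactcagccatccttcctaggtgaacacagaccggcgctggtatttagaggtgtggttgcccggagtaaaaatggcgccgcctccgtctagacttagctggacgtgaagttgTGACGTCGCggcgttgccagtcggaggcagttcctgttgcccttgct
Psmb6 (chr11:70525107-70525356, + strand): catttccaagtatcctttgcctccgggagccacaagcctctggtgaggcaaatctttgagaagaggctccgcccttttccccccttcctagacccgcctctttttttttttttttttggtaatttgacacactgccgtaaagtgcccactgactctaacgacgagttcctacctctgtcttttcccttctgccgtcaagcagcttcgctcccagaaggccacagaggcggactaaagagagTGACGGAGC
Psme1 (chr14:55578244-55578493, + strand): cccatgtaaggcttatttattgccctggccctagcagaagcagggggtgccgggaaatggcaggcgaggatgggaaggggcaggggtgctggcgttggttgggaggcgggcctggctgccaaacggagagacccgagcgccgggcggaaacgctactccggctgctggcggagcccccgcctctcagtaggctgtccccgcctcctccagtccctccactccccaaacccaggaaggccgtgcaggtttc
Psme2 (chr14:55591102-55591351, - strand): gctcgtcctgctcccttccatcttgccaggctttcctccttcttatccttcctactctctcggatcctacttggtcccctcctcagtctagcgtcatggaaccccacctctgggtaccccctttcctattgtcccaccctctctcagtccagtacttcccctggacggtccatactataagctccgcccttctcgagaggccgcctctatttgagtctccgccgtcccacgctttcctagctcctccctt
For Psme2 the more upstream of 2 listed starts is shown, and the distance above is to the other.

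Of the 41 genes 34 were in the promoter table, and the windows were searched on both strands. TGACNNNGC occurred in 5 of these 34 genes (14.7%), Psmb5, Psmb6, Psmc6, Psmd9 and Psmd12, against 11.5% of 27025 genes and 10.2% of 32851 windows in the table. Its first base lay 47 bases before the start in Psmb5, 9 in Psmb6 and 31 in Psmd9, on the gene's strand. CCAAT, the box bound by NF-Y, occurred in 14 of 34 genes (41.2%) against 37.5% of genes and 33.8% of windows. Both shares are near those of all genes. The catalytic gene Psmb7 is not shown. It also changed little (0.00 from fresh to DMSO, -0.04 from DMSO to 79-6) and is not among the 5 genes with TGACNNNGC. Whether either motif bears on the changes was not tested. Neither motif occurred in the windows of Psme1, Psme2, Psme4 or Psmd8, which says only that these letters are not in those windows.

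Among 10 measured genes for the transcription factors behind proteasome genes, 2 rose and 2 fell from fresh to DMSO. Nfe2l1 itself, the main one, changed by -0.10 (-0.27 to 0.07, adjusted p = 0.422) and Ngly1, the enzyme that activates its protein, by -0.06. Nfe2l2, its relative in the oxidative stress response, read 10.09 and 10.13 in fresh, 10.66 and 10.79 in DMSO and 10.88 and 10.97 in 79-6. It rose by 0.62 ± 0.08 from fresh to DMSO (SE, adjusted p = 0.00174), while the small Maf partner Mafk fell by 0.74 ± 0.09 (adjusted p = 0.00139), and both calls held in every alternative. The NF-Y subunit genes split. Nfyb rose by 0.41 (adjusted p = 0.0150) and Nfya fell by 0.27 (adjusted p = 0.0307), but Nfyb was not called without fresh replicate 1 (0.0631), fresh replicate 2 (0.0879), DMSO replicate 1 (0.0854) or DMSO replicate 2 (0.0652). Nor was Nfya without these arrays (0.147, 0.142, 0.142 and 0.0952) or with arrays set to 1 median (0.0924). In 79-6 against DMSO none of the 10 was called by limma.

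Some genes for 20S assembly chaperones and proteasome-bound proteins were called. Of 5 assembly chaperones, 0 rose and 1 fell in each comparison, Psmg4 from fresh to DMSO (-0.30, adjusted p = 0.0276, but 0.0553 to 0.152 without any 1 fresh or DMSO array and 0.0677 with arrays set to 1 median) and Psmg2 in the others. Psmg2 read 10.51 and 10.53 in fresh, 10.44 and 10.34 in DMSO and 10.08 and 9.96 in 79-6. It was 0.50 ± 0.08 lower in 79-6 than in fresh (SE, adjusted p = 0.00371) and 0.37 lower than in DMSO (adjusted p = 0.0497), a call lost without any 1 array (0.0601 without 79-6 replicate 1 to 0.209 without DMSO replicate 1). Of 8 proteasome-bound proteins, 1 rose (Akirin2, needed for nuclear import of proteasomes) and 1 fell (Ecpas, an adaptor) from fresh to DMSO, and 0 were called from DMSO to 79-6 by limma. Between 79-6 and fresh limma called 1 of the 8 higher and 3 lower, where it called 26% of all genes. Akirin2 was higher (0.25, adjusted p = 0.0390). Ecpas (-0.49 ± 0.07, SE, adjusted p = 0.00204), Txnl1 (-0.42, 0.0332) and Ube3c (-0.35, 0.0159) were lower. With only the 4 arrays compared the calls of Akirin2 (0.0563) and Txnl1 (0.0556) were lost. Those of Akirin2, Txnl1 and Ube3c were also lost in some fits without 1 array. All 8 proteasome-bound genes had lower mean values in 79-6 than in DMSO, at a median of -0.19, where all genes had a median of 0.02. Genes at or above the median level had a median of -0.024. The share of all genes that were lower was not counted. Akirin2 (-0.02), Sem1 (-0.03) and Psmf1 (-0.03) were near 0, and their arrays and those of Txnl1 overlapped between these groups. From fresh to DMSO, Akirin2 was at 0.26 (adjusted p = 0.0369) and Ecpas at -0.29 (adjusted p = 0.0210), and both calls were lost without any 1 fresh or DMSO array (0.0835 to 0.180 and 0.0887 to 0.120). With arrays set to 1 median Ecpas was not called either (-0.24, adjusted p = 0.0660). Among 11 shuttle factors and p97 genes 0 were called from fresh to DMSO. Between 79-6 and fresh Ubqln4 alone was called, at -0.34 (adjusted p = 0.0138 by limma), and not in some fits without 1 array. From DMSO to 79-6 Rad23b, a carrier of ubiquitylated proteins, was called higher at 0.34 (adjusted p = 0.0491), and that call was lost without any 1 array (0.0765 to 0.199) and with arrays set to 1 median (0.0770).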

How the data were processed

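The data are 6 one-colour Affymetrix whole-transcript arrays, 1 column each. The deposited values are intensity values on a linear scale, from 8.75 to 25316. RMA and oligo (an R package) are listed, per the submitters' processing notes. Their versions and the genome build were not given in the sources used here.

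Log2 was taken of every value. Of 34760 probe sets 21640 had 1 gene symbol, 1321 several and 11799 none, and only the first were used. Entrez identifiers matched RefSeq genes for 21553 and changed 0 symbols. Each of 19937 genes was represented by its brightest probe set over the 6 arrays, and 36 of the 41 members had 1 probe set. All arrays were fitted with 1 mean per group (limma 3.58.1, R 4.3.3, lmFit and eBayes, prior degrees of freedom 4.24 beside 3 residual). Tests were two-sided, and p-values were adjusted by Benjamini-Hochberg across all genes. Intervals use the moderated standard error. The fit was tested on simulated data. Deviations of same-numbered arrays correlated at 0.0036, -0.0740 and 0.0948, so numbers were not taken as pairs. Named members were those called from DMSO to 79-6, up to 6 per direction called in the other comparisons, the catalytic subunits, and the member of smallest p where a direction had no call; from other lists, called genes or up to 3 of smallest p. The array values of Psme3, and Nfe2l1, Ngly1, Psmb8 and Psmb9, lie outside this rule and were added after their values were seen. The members, lists and tests were chosen with earlier results of these data known. Alternatives were the replicate block, arrays set to 1 median, only genes at or above the median level, the mean of a gene's probe sets, eBayes with trend and robust settings, only the arrays compared, and leaving out each array. For a given comparison, leaving out an array of the group not compared gives the same fit as only the arrays compared. Leaving out Psmc3ip and Psme3ip1 was added after the data were seen.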

Additional observations from a re-analysis of the deposited data

How the results depend on the processing

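Between DMSO and fresh, members called higher numbered 4 with arrays set to 1 median, 1 with the replicate block, 5 with only genes at or above the median level, 5 with trend and robust settings, and 0 to 2 without 1 array. The lower ones numbered 2 to 3 without 1 array. Between 79-6 and fresh, members called higher numbered 1 with arrays set to 1 median, 1 with the replicate block, 6 with only genes at or above the median level, 6 with trend and robust settings, and 0 to 2 without 1 array. The lower ones numbered 5 with trend and robust settings and 0 to 3 without 1 array. Between 79-6 and DMSO the members called higher and lower each numbered 0 to 1 without 1 array. The median member change with arrays set to 1 median was 0.090 for DMSO against fresh and -0.040, with the sign turned, for 79-6 against DMSO, and between 79-6 and fresh it ran from 0.031 to 0.079 without 1 array. Leaving out Psmc3ip and Psme3ip1 moved no median by more than the spread between arrays. Of all genes, limma called 1547 from DMSO to 79-6 with only genes at or above the median level, 1723 with trend and robust settings, and 93 to 661 without 1 array. Without 1 array it called 2286 to 4070 from fresh to DMSO and 3081 to 5068 between 79-6 and fresh. With the replicate block the calls of Psme4 (0.0572) from fresh to DMSO and Psma2 (0.0766) between 79-6 and fresh were lost, and no other call of a member named with array values changed. Those of Psmb10 (0.0529), Psmg2 (0.0602) and Rad23b (0.0738) in 79-6 against DMSO and of Akirin2 (0.0618) and Nfya (0.0545) in DMSO against fresh were lost too. The replicate numbers are not known to pair arrays. No called change reversed. Each fit without 1 array of the groups compared leaves a lone array, assumed to vary like the others. RMA intensities give no signal over background, so no gene could be checked for it.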

Other observations

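A list of peptidases is given here beside the proteasome genes. Whether they cut proteasome products in these cells was not tested. Of 7 measured, 1 was higher and 4 were lower in DMSO than in fresh. Nln, which encodes neurolysin, read 9.62 and 9.57 in fresh, 7.72 and 7.70 in DMSO and 7.87 and 7.75 in 79-6. It fell by 1.88 ± 0.07 from fresh to DMSO (SE, adjusted p = 1.58e-05 by limma) and changed by 0.09 from DMSO to 79-6. Lap3, a leucine aminopeptidase, read 10.29 and 10.31, 9.75 and 9.74, and 9.74 and 9.72, and fell by 0.55 ± 0.07 from fresh to DMSO (adjusted p = 0.00141). Thop1, a relative of Nln, was 0.49 ± 0.08 lower in 79-6 than in fresh (adjusted p = 0.00362). These 3 calls held in every alternative run, while those of Npepps (0.38), Erap1 (-0.43) and Thop1 (-0.35) from fresh to DMSO did not. From DMSO to 79-6 none of the 7 was called by limma, and their changes ran from -0.15 to 0.15. The fall of thymic epithelial markers stands beside these values too, and its part in them was not tested. Of the genes for ubiquitin and its activation 2 were measured. Uba3, part of the enzyme that activates Nedd8, stood at 0.42 from fresh to DMSO (adjusted p = 0.0122), a call lost without any 1 fresh or DMSO array. Uba6, a ubiquitin-activating enzyme, was lower in 79-6 than in fresh (-0.43, adjusted p = 0.00614).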
